A study of Mus musculus with 22 samples.

Results

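The 20 genes described here were low in a mouse embryonic stem (ES) cell clone with a knockout of Dux and were several-fold higher in the same clone after a degrader of the DNA methyltransferase DNMT1. They were chosen from 47729 genes by 3 thresholds on CPM (the count of a gene scaled to the library total), read on group means plus 0.1 CPM. The WT DMSO mean had to be at least 1 CPM, the KO22 DMSO mean at most 1/4 of it, and the KO22 GSK mean at least 4 times the KO22 DMSO mean. Of 13499 genes at the WT minimum, 142 were at most 1/4 in KO22 DMSO, and 24 of these also met the GSK-3484862 threshold. The rule leaves out 6 imprinted genes by name, of which 4 (Meg3, Rian, H19 and Mirg) had met the thresholds, so 20 genes remained.

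The question behind the series is what the duplication of the Dux cluster adds to the activation of genes that are switched on in the 2-cell embryo. Dux encodes a transcription factor of the early embryo. The treated set holds KO22 (titled Dux-KO22), N22 (titled Dux-N22) and WT ES cells, each given GSK-3484862 (GSK below) or DMSO for 3 days, with 2 libraries for each of the 6 combinations. The untreated set holds Dux-KO clones 15, 22 and 52, Dux n=1 clones 17, 22, 31 and 40 (titled Duxnto1), and 3 libraries of E14, an established mouse ES cell line. The Dux-KO and Dux n=1 cells were edited by CRISPR-Cas9, and all cells grew in serum with LIF. The treatment protocol gives 1 uM of GSK-3484862 and the design text 2 uM, so the dose is uncertain. KO22 and N22 are read as 1 clone each, N22 as a Dux n=1 clone, so that genotype and clone cannot be told apart in the treated set. The labels do not say whether KO22 and the untreated Dux-KO clone 22 are the same cells, nor whether WT is E14.

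DNMT1 copies methylation of CG dinucleotides to the new DNA strand at each cell division. Without it the methylation is diluted as cells divide, and genes whose promoters were kept silent by methylation can be transcribed. DNA methylation was not measured in the data analysed here.

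Library totals lay between 15803194 and 19427794 counts. Duxf3, the symbol under which the annotation lists Dux, had 0 counts in all 4 KO22 libraries, against 13 and 11 in N22 GSK and 19 and 18 in WT GSK. With DMSO it had only 3 and 0 counts in N22 and 1 and 1 in WT, so the 0 counts in KO22 DMSO do not set that group apart. In the untreated set Duxf3 had 0, 5 and 1 counts in the libraries labelled Dux-KO clones 15, 22 and 52, and 1, 0 and 0 in E14. Dux is multi-copy, so these low counts are uncertain. The 8 ES cell markers together had 4376 to 4455 CPM in the 6 GSK libraries, against 5337 to 5804 CPM in the 6 DMSO libraries, and 4813 to 6431 CPM in the untreated set, and none was at 0. The 2-cell-like markers (6 genes, including Zscan4c and Zscan4d) summed to 0.0541 to 0.157 CPM in KO22 GSK and 0 CPM in KO22 DMSO. They summed to 21.4 to 22.9 CPM in N22 GSK and 1.42 to 2.69 CPM in N22 DMSO, and to 52.6 to 54.4 CPM in WT GSK and 4.30 to 5.15 CPM in WT DMSO.

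Promoter sequence is shown for the 3 members with the highest CPM in WT DMSO, because methylation acts on CG dinucleotides and these genes carry most of the members' counts. Each line gives the 250 bases before the start site from RefSeq (GRCm38.p6), 5′ to 3′ on the gene's strand, with CG dinucleotides in capitals. The Klhl13 window is chrX:23365083-23365332 on the minus strand and holds 12 CG. The Miip window is chr4:147868720-147868969 on the minus strand and holds 10 CG. The Pttg1 window is chr11:43425982-43426231 on the minus strand and holds 20 CG. GENCODE starts Miip and Pttg1 further upstream than RefSeq, so part of the Miip window and all of the Pttg1 window lie inside its gene models.
Klhl13: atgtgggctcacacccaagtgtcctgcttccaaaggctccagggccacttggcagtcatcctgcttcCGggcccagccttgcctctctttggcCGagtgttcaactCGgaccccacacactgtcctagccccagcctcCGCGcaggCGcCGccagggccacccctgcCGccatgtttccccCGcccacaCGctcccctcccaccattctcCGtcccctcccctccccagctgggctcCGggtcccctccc
Miip: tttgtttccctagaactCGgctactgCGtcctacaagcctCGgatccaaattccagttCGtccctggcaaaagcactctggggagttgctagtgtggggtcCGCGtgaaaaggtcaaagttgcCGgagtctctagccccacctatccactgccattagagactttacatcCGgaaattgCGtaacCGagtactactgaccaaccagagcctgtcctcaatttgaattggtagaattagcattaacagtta
Pttg1: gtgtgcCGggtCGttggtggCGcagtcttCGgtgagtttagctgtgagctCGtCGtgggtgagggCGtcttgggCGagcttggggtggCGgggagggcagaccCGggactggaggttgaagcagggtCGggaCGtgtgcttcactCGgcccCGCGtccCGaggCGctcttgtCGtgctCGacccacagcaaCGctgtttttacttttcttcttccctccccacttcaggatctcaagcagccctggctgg

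The members' median CG count before the start site was below that of other expressed genes. Of the 20 members, 15 had a RefSeq promoter entry, and their 250 upstream bases held a median of 10 CG (3 to 21), against 16 in 9920 other genes at the WT minimum (25th to 75th percentile 10 to 23). Of the 15, 9 members carried 10 or more CG, which is 60%, against 76% of the other genes. The fewest stood before Fxyd5 (3), Aass (4) and Acot1 (4), and the most before Dll1 and Trim67 (21 each). The windows of Dll1 and Nrsn1 (20 CG) lie wholly inside the gene models counted here, and those of some other members partly. Their place before a start site is therefore uncertain. GC content was also lower, at a median of 55.6% in the members and 60.4% in the other genes. The dinucleotide was counted as the letters CG, which read the same on both strands, and 99.3% of the other promoters hold at least 1. The promoters of the other 5 members, among them Got1l1, Slc40a1, Ramp2 and Sema6a, were not analysed here.

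**Figure D1:**
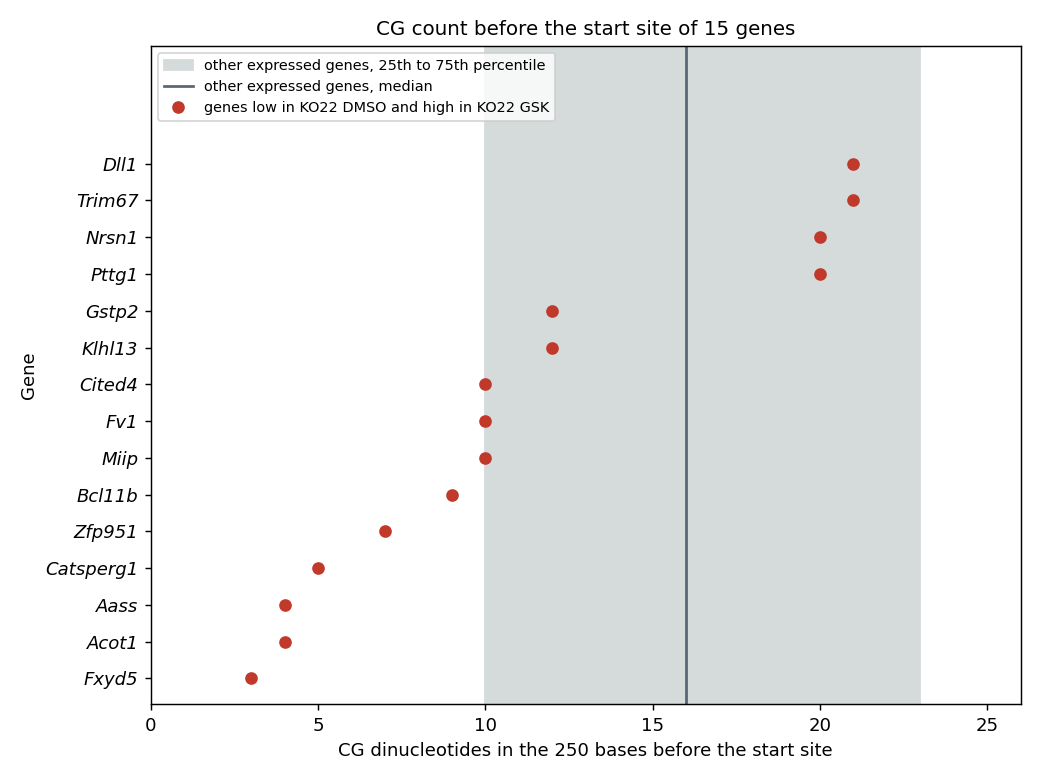
CG dinucleotides in the 250 bases before the RefSeq start site (x axis, count) of 15 of the 20 genes (points), with the median (line) and the 25th to 75th percentile (band) of 9920 other genes with at least 1 CPM in WT DMSO. Values run between 3 for Fxyd5 and 21 for Dll1 and Trim67, and none of the 15 genes lies above the band.

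Together the 20 genes had 379 and 374 CPM in KO22 GSK, against 48.3 and 49.1 CPM in KO22 DMSO. N22 had 592 and 586 CPM with GSK, against 167 and 175 CPM with DMSO, and WT had 617 and 617 CPM with GSK, against 332 and 327 CPM with DMSO. Klhl13 alone makes up a large share of these sums. Without it KO22 had 206 and 207 CPM with GSK and 21.1 and 22.1 CPM with DMSO, while N22 DMSO had 109 and 114 CPM and WT DMSO 154 and 151 CPM. The KO22 DMSO libraries were the lowest of the 12 for all 20 genes. The rule set this only against WT DMSO and KO22 GSK, but choosing genes for low KO22 DMSO values favours it elsewhere too. The word silenced fits only some members, since Klhl13, Pttg1 and Acot1 kept readily counted RNA in KO22 DMSO and Fv1 had next to none. In bulk RNA, fewer expressing cells and less RNA per cell cannot be told apart.

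**Figure D2:**
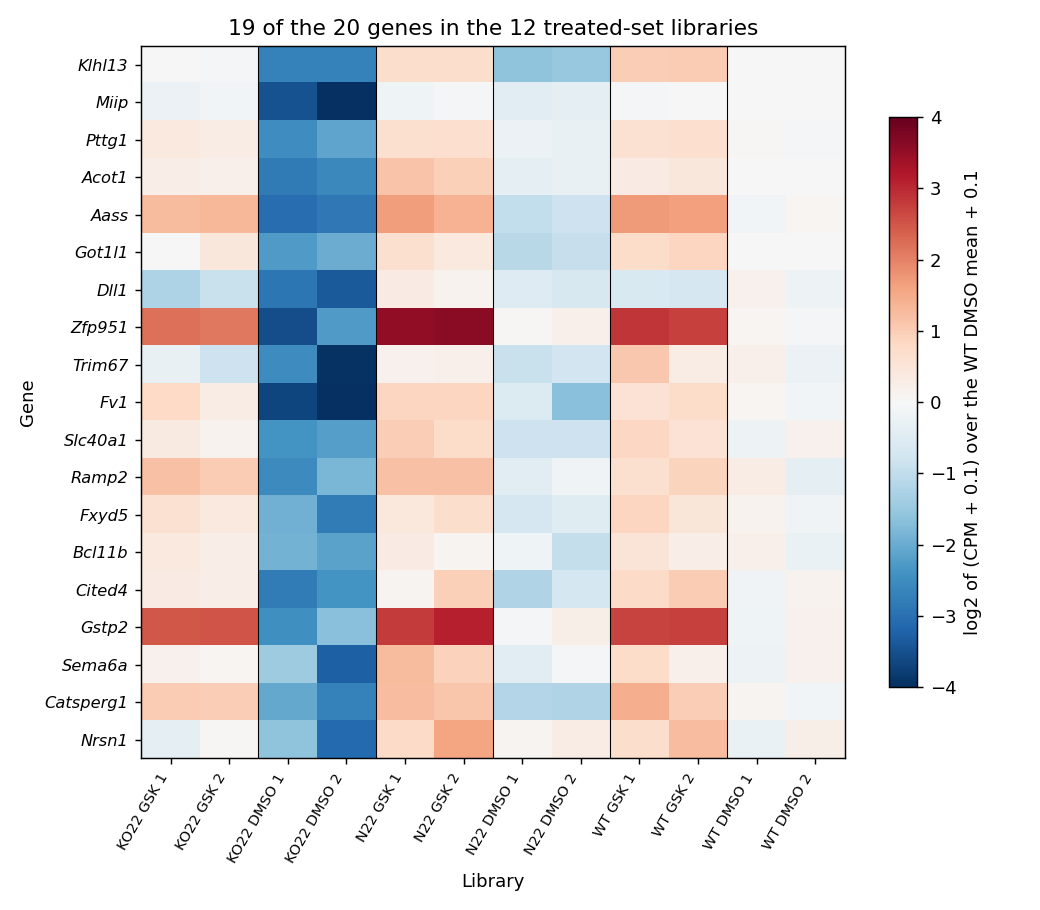
Level of 19 of the 20 genes (rows) in the 12 libraries of the treated set (columns), as log2 of CPM plus 0.1 over the WT DMSO mean plus 0.1. Colours end at 4 in either direction, KO22 DMSO is blue throughout because the rule chose it so, and the N22 DMSO columns, which the rule did not use, range from log2 -1.58 for Klhl13 to 0.20 for Nrsn1 in their group means.

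Among genes of protein turnover and cell division, Klhl13 (ENSMUSG00000036782, chrX:23219271-23365082, minus strand) encodes a kelch-like adaptor of the CUL3 ubiquitin ligase. Klhl13 had 173 and 167 CPM in KO22 GSK, against 27.3 and 27.0 CPM in KO22 DMSO. N22 had 288 and 291 CPM with GSK and 57.5 and 61.3 CPM with DMSO, and WT had 354 and 355 CPM with GSK and 178 and 176 CPM with DMSO. The levels thus followed the order KO22, N22, WT under both treatments, without overlap, and N22 DMSO stood at 0.336 of WT DMSO, the lowest ratio among the 20 genes. Pttg1 (chr11:43420250-43426251, minus strand) encodes securin, the inhibitor of separase in mitosis. Pttg1 had 39.1 and 36.7 CPM in KO22 GSK, against 5.23 and 6.88 CPM in KO22 DMSO. Levels in N22 were 47.0 and 47.7 CPM with GSK and 25.3 and 24.5 CPM with DMSO, beside 45.5 and 47.9 CPM with GSK and 30.6 and 29.2 CPM with DMSO in WT. N22 thus lay near WT for Pttg1, and far from KO22.

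Trim67 encodes a TRIM family ubiquitin ligase best known from neurons. It had 2.44 and 1.68 CPM in KO22 GSK, against 0.445 and 0.103 CPM in KO22 DMSO. In N22 the levels were 3.46 and 3.49 CPM with GSK and 1.58 and 1.74 CPM with DMSO, and in WT 6.54 and 3.80 CPM with GSK and 3.51 and 2.57 CPM with DMSO. KO22 GSK reached 0.409 of WT GSK, the lowest such ratio among the 20 genes.

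Miip and Fv1 are the only 2 of the 20 genes that neighbour each other within 100000 bases. Miip (chr4:147860778-147868816, minus strand) encodes an inhibitor of cell migration and invasion in human cells, and Fv1 (chr4:147868979-147870358, plus strand) is a gene derived from a retroviral gag sequence that restricts murine leukaemia virus. Their RefSeq start sites lie head to head, 260 bases apart for the nearer Miip start and 463 for the other, so the Miip window printed above also lies in front of Fv1. Miip had 26.5 and 28.8 CPM in KO22 GSK, against 2.67 and 1.86 CPM in KO22 DMSO. N22 had 27.6 and 29.7 CPM with GSK and 23.0 and 24.5 CPM with DMSO, and WT had 29.8 and 30.7 CPM with GSK and 30.8 and 31.3 CPM with DMSO. KO22 DMSO was thus the single low group for Miip, and the other 5 groups lay within 23.0 to 31.3 CPM. Fv1 had 4.60 and 3.20 CPM in KO22 GSK, against 0.111 and 0 CPM in KO22 DMSO, which are 2 and 0 counts, and a count of 0 allows up to 0.155 CPM in that library. Over both libraries the ratio of KO22 DMSO to WT DMSO was 0.0206 without the added 0.1 CPM. That ratio is a description only, since these libraries chose the gene. N22 had 4.83 and 4.80 CPM with GSK and 1.75 and 0.739 CPM with DMSO, and WT had 3.96 and 4.40 CPM with GSK and 2.78 and 2.42 CPM with DMSO. Both genes of the pair were thus lowest in KO22 DMSO, and their GSK levels overlapped or nearly met among the 3 lines.

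Zfp951 (chr5:104813169-104860070, minus strand) is named as a zinc finger protein gene. It had 20.3 and 19.09 CPM in KO22 GSK, against 0.278 and 0.828 CPM in KO22 DMSO. N22 had 52.3 and 54.6 CPM with GSK and 4.53 and 5.01 CPM with DMSO, and WT had 32.2 and 29.6 CPM with GSK and 4.62 and 4.12 CPM with DMSO. For Zfp951 the DMSO levels of N22 and WT overlapped, while the GSK levels of the 3 lines were apart, in the order KO22, WT, N22. Gstp2, a glutathione S-transferase of the pi class (chr19:4040285-4042236, minus strand), had a similar shape. Gstp2 had 8.12 and 8.34 CPM in KO22 GSK, against 0.167 and 0.362 CPM in KO22 DMSO. Its levels were 10.1 and 12.6 CPM in N22 GSK, 1.31 and 1.64 CPM in N22 DMSO, 9.46 and 9.77 CPM in WT GSK and 1.21 and 1.54 CPM in WT DMSO. Zfp951 and Gstp2 had the largest WT GSK to WT DMSO ratios among the 20 genes, 6.94 and 6.58.

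The other metabolic genes were Aass, Acot1 and Got1l1. Aass encodes the mitochondrial enzyme of the first steps of lysine breakdown. Aass had 37.2 and 38.4 CPM in KO22 GSK, against 1.78 and 2.02 CPM in KO22 DMSO. In N22 it had 48.5 and 40.3 CPM with GSK and 7.70 and 8.60 CPM with DMSO, and in WT 49.7 and 47.5 CPM with GSK and 14.3 and 16.3 CPM with DMSO. All 3 lines had more Aass RNA with GSK, and with DMSO the order was KO22, N22, WT without overlap. Acot1 encodes a cytosolic thioesterase that hydrolyses long-chain fatty acyl-CoA. It had 27.4 and 26.2 CPM in KO22 GSK, against 3.17 and 3.78 CPM in KO22 DMSO. N22 had 51.3 and 44.9 CPM with GSK and 17.4 and 18.6 CPM with DMSO, and WT 29.1 and 31.3 CPM with GSK and 22.6 and 23.4 CPM with DMSO. N22 GSK thus stood above every other library for Acot1. Got1l1, which resembles aspartate aminotransferase, had 11.1 and 14.9 CPM in KO22 GSK, against 2.23 and 2.69 CPM in KO22 DMSO. Its level was 17.0 and 14.5 CPM in N22 GSK, 5.02 and 5.75 CPM in N22 DMSO, 18.3 and 20.1 CPM in WT GSK and 10.96 and 10.96 CPM in WT DMSO. KO22 GSK thus overlapped N22 GSK for Got1l1 and lay below WT GSK.

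Among the developmental regulators, Dll1 encodes a ligand of Notch receptors. Dll1 had 3.03 and 3.83 CPM in KO22 GSK, against 0.890 and 0.621 CPM in KO22 DMSO. N22 had 9.19 and 7.96 CPM with GSK and 5.08 and 4.59 CPM with DMSO, and WT had 4.73 and 4.51 CPM with GSK and 8.13 and 6.33 CPM with DMSO. WT was therefore lower with GSK for Dll1, and N22 higher. KO22 GSK stayed below WT DMSO for Dll1 without overlap.

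The regulators Bcl11b and Cited4 had low counts. Bcl11b, a zinc finger transcription factor of T cell commitment, had 2.54 and 2.36 CPM in KO22 GSK, against 0.445 and 0.362 CPM in KO22 DMSO. Its levels were 2.45 and 2.07 CPM in N22 GSK, 1.69 and 0.95 CPM in N22 DMSO, 2.80 and 2.33 CPM in WT GSK and 2.26 and 1.60 CPM in WT DMSO. Cited4, a transcriptional coactivator that binds CBP and p300, had 2.22 and 2.15 CPM in KO22 GSK, against 0.167 and 0.259 CPM in KO22 DMSO. N22 had 1.91 and 3.54 CPM with GSK and 0.710 and 1.06 CPM with DMSO, and WT had 3.08 and 3.64 CPM with GSK and 1.57 and 1.96 CPM with DMSO. Bcl11b thus overlapped between N22 DMSO and WT DMSO, and Cited4 did not.

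Membrane protein genes made up the rest, all at low CPM. Slc40a1 encodes ferroportin, the iron exporter. It had 3.19 and 2.78 CPM in KO22 GSK, against 0.389 and 0.466 CPM in KO22 DMSO. N22 had 5.07 and 4.25 CPM with GSK and 1.37 and 1.37 CPM with DMSO, and WT had 4.51 and 3.75 CPM with GSK and 2.15 and 2.83 CPM with DMSO. Ramp2, a partner of the receptor for adrenomedullin, had 5.63 and 5.04 CPM in KO22 GSK, against 0.334 and 0.621 CPM in KO22 DMSO. Ramp2 was the 1 gene for which KO22 GSK lay above WT GSK, which had 3.85 and 4.67 CPM, and its other levels were 5.67 and 5.61 CPM in N22 GSK, 1.75 and 2.22 CPM in N22 DMSO and 3.04 and 1.85 CPM in WT DMSO. Fxyd5, a regulator of the sodium pump, had 3.68 and 3.15 CPM in KO22 GSK, against 0.556 and 0.259 CPM in KO22 DMSO. Its levels were 3.22 and 3.92 CPM in N22 GSK, 1.47 and 1.69 CPM in N22 DMSO, 4.45 and 3.42 CPM in WT GSK and 2.62 and 2.16 CPM in WT DMSO. For Slc40a1 and Fxyd5 the 3 lines were apart with DMSO and the N22 and WT libraries overlapped with GSK.

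Sema6a, a transmembrane semaphorin of axon guidance, had 1.52 and 1.42 CPM in KO22 GSK, against 0.445 and 0.0517 CPM in KO22 DMSO. N22 had 3.40 and 2.62 CPM with GSK and 0.983 and 1.27 CPM with DMSO, and WT had 2.31 and 1.57 CPM with GSK and 1.15 and 1.54 CPM with DMSO. Nrsn1, a vesicle membrane protein of neurons, had 0.920 and 1.26 CPM in KO22 GSK, against 0.334 and 0.0517 CPM in KO22 DMSO. The N22 and WT DMSO libraries overlapped for both genes, Nrsn1 having 2.15 and 3.82 CPM in N22 GSK, 1.31 and 1.53 CPM in N22 DMSO, 2.03 and 2.99 CPM in WT GSK and 0.997 and 1.44 CPM in WT DMSO. Catsperg1 encodes an auxiliary subunit of the sperm calcium channel CatSper. It had 2.54 and 2.52 CPM in KO22 GSK, against 0.223 and 0.103 CPM in KO22 DMSO. N22 had 2.98 and 2.78 CPM with GSK and 0.491 and 0.475 CPM with DMSO, and WT had 3.52 and 2.50 CPM with GSK and 1.31 and 1.13 CPM with DMSO. Values near 0.05 CPM in these genes are single counts.

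**Figure D3:**
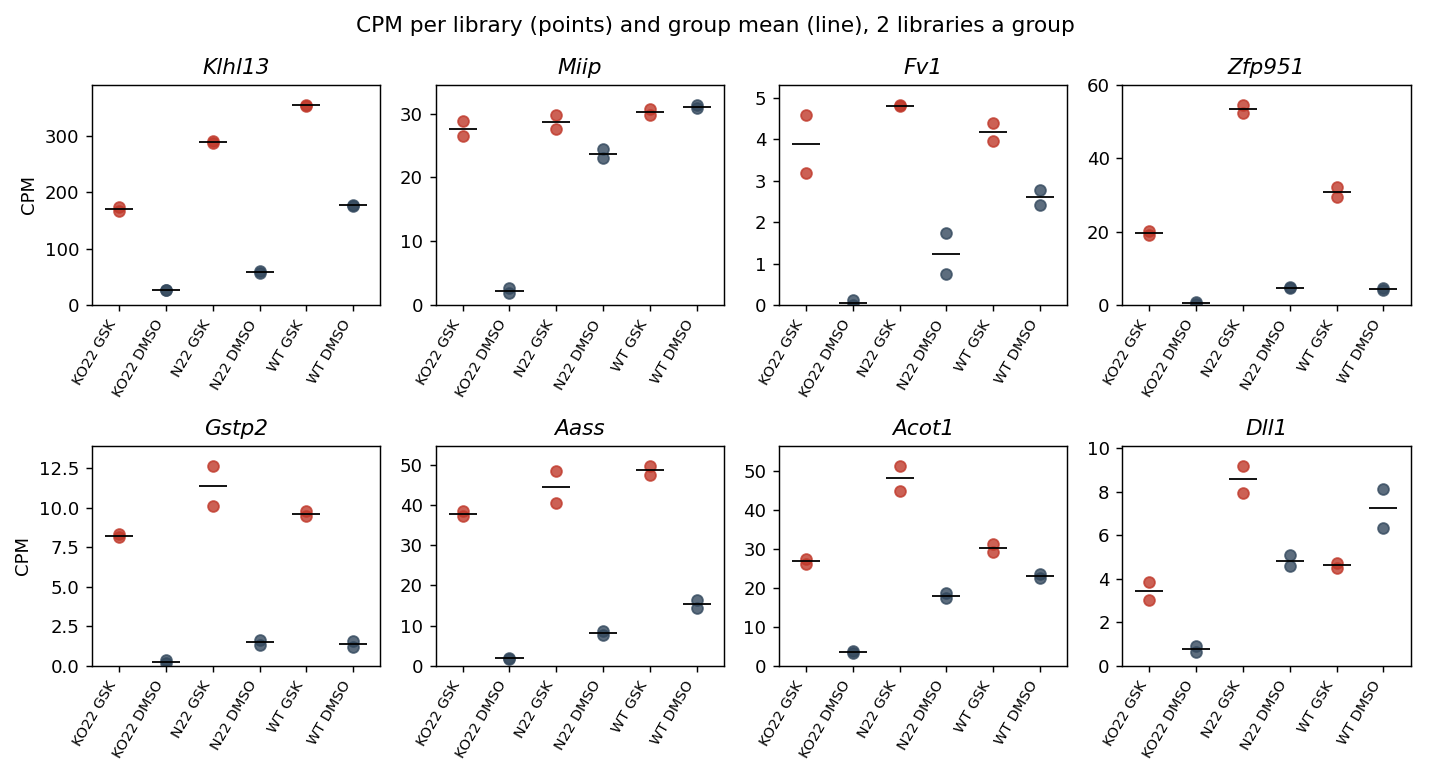
CPM of 8 of the 20 genes in the treated set, with a point for each library and a line at the mean of the 2 libraries of a group. For Miip the KO22 DMSO libraries (2.67 and 1.86 CPM) stand apart from all others, Klhl13 is intermediate in N22 DMSO (57.5 and 61.3 CPM), and Dll1 in WT is lower with GSK than with DMSO.

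The values of KO22 DMSO against WT DMSO and of KO22 GSK against KO22 DMSO chose the genes, so they are given as a description without a test. KO22 DMSO stood at a median of 0.183 of WT DMSO, between 0.0576 for Fv1 and 0.249 for Bcl11b. KO22 GSK stood at a median of 6.58 times KO22 DMSO, between 4.06 for Nrsn1 and 30.3 for Zfp951. All ratios of this kind are of group means plus 0.1 CPM. Just inside the WT minimum lay Nrsn1 (1.22 CPM) and Catsperg1 (1.22 CPM), and just outside it Ccdc170 (0.833 CPM) and Sowaha (0.779 CPM). Bcl11b and Gstp2 were just inside the first fold threshold, with WT DMSO at 4.02 and 4.05 times KO22 DMSO, and Car4 and Irs4 were just outside at 3.99 and 3.96 times. Nrsn1 and Dll1 were just inside the second, with KO22 GSK at 4.06 and 4.13 times KO22 DMSO, and Gm26829 and Sbsn were just outside at 3.98 and 3.88 times. The membership of genes with few counts depended on single libraries. With the first library of each of the 3 groups, 36 genes met the thresholds, and 12 of these met them again in the second libraries. A gene that meets them in both is a member by construction. Without KO22 DMSO replicate 1 the rule gave 40 genes, 17 of them among the 20. Klhl13, Miip, Pttg1, Acot1, Aass, Zfp951, Fv1 and Cited4 met every threshold in every pairing of libraries.

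Beside these changes, marker genes of other cell types were read in the same libraries, and their part in the results was not tested. The 6 trophoblast markers (Elf5 was at 0 in all DMSO libraries) summed to 68.4 to 71.2 CPM in KO22 GSK and 35.4 to 36.5 CPM in KO22 DMSO, to 107 CPM in N22 GSK and 78.6 to 78.7 CPM in N22 DMSO, and to 95.3 to 109 CPM in WT GSK and 100.4 to 104 CPM in WT DMSO. KO22 DMSO was thus lowest of the 6 treated-set groups for these markers. In the untreated set they summed to 32.3 to 37.4 CPM in E14, 42.0 to 57.0 CPM in the Dux-KO clones and 36.9 to 76.1 CPM in the Dux n=1 clones. The 7 fibroblast markers summed to 37.4 to 42.1 CPM in KO22 DMSO, against 19.15 to 21.5 CPM in WT DMSO, with Col3a1, Postn, Lum and Dcn at 0 in both groups. Primitive endoderm markers (7 genes) were higher with GSK in every line. They summed to 14.1 to 14.2 CPM in KO22 GSK and 8.64 to 9.40 CPM in KO22 DMSO, to 10.9 to 14.01 CPM in N22 GSK and 4.91 to 6.33 CPM in N22 DMSO, and to 19.4 to 20.5 CPM in WT GSK and 8.18 to 8.49 CPM in WT DMSO. Mesoderm markers (4 genes) summed to at most 3.06 CPM in any library of the treated set. Neural markers (6 genes) summed to 259 to 262 CPM in KO22 GSK and 185 to 188 CPM in KO22 DMSO, to 306 to 327 CPM in N22 GSK and 185 to 188 CPM in N22 DMSO, and to 267 to 270.0 CPM in WT GSK and 170.0 to 171 CPM in WT DMSO. Mitochondrial genes held 2.66% to 3.20% of the counts in the 6 GSK libraries and 1.65% to 2.39% in the 6 DMSO libraries, with 2.28% and 2.36% in KO22 DMSO and 1.78% and 1.65% in WT DMSO.

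The N22 clone was not used by the rule and shows what the same genes did in another edited clone. With DMSO, N22 libraries lay above both KO22 libraries for all 20 genes, where 36.8% of the 13499 genes at the WT minimum did so, with a median log2 ratio of 2.03. Against WT DMSO, N22 DMSO was lower without overlap for 14 genes and higher for none, where 36.9% of the 13499 genes were lower, with a median log2 ratio of -0.54. These comparisons share libraries with the rule and carry no test. N22 was within 2-fold of WT for 16 of the 20 genes with DMSO. The 4 genes below that were Klhl13, Got1l1, Fv1 and Catsperg1, at 0.336, 0.496, 0.497 and 0.441 of WT DMSO.

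In N22, GSK raised nearly all of these genes. Of the 20, 18 were higher and 1 was lower in N22 GSK than in N22 DMSO at a Benjamini-Hochberg adjusted p below 0.05 in edgeR's quasi-likelihood test over 16641 genes, of which 26.9% were called higher and 26% lower. The median log2 fold change was 1.41 over the 20 genes and 0.0017 over all genes tested. Zfp951 rose by 3.43 ± 0.12 (log2 fold change ± SE, adjusted p 1.12e-35), Gstp2 by 2.89 ± 0.21 (5.49e-19), Catsperg1 by 2.51 ± 0.39 (8.25e-08), Aass by 2.39 ± 0.10 (5.65e-31) and Klhl13 by 2.24 ± 0.04 (5.12e-50). The retrovirus restriction gene Fv1 and the iron exporter gene Slc40a1 rose by 1.91 ± 0.29 and 1.71 ± 0.27. Another 10 genes rose by 0.78 (Dll1) to 1.58 (Cited4), among them Nrsn1 by 1.03 ± 0.35 with an adjusted p of 0.00999. Miip rose least, by 0.22 ± 0.09 (adjusted p 0.0325), and its libraries did not overlap. Bcl11b was not called at 0.72 ± 0.33 (adjusted p 0.061, and 0.0197 to 0.472 over 9 alternatives).

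The calls of Miip and Nrsn1 rested on single libraries. Miip was lost without N22 DMSO replicate 1 (adjusted p 0.195) and without N22 GSK replicate 2 (0.218), and ranged over 0.0227 to 0.218 in 9 alternatives. Nrsn1 was lost without the same libraries, with adjusted p 0.0713 and 0.334 and a range of 0.00217 to 0.334. DESeq2 called neither, and Miip was also lost without the count filter (adjusted p 0.0791).

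With GSK, 4 of the 20 genes were called different between N22 and WT. Between N22 GSK and WT GSK, which the rule did not use, 3 of the 20 genes were higher and 1 was lower in N22, where 5.05% of 16641 genes were called higher and 4.6% lower. Dll1 was higher by 0.90 ± 0.19 (log2, adjusted p 0.000371 in edgeR), Zfp951 by 0.80 ± 0.09 (7.79e-10) and Acot1 by 0.68 ± 0.08 (3.92e-09). Klhl13 was lower, at -0.28 ± 0.04 (2.23e-07). The other 16 were not called, with fold changes between -0.56 for Trim67 and 0.64 for Sema6a, so differences of that size may have been missed.

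**Figure D4:**
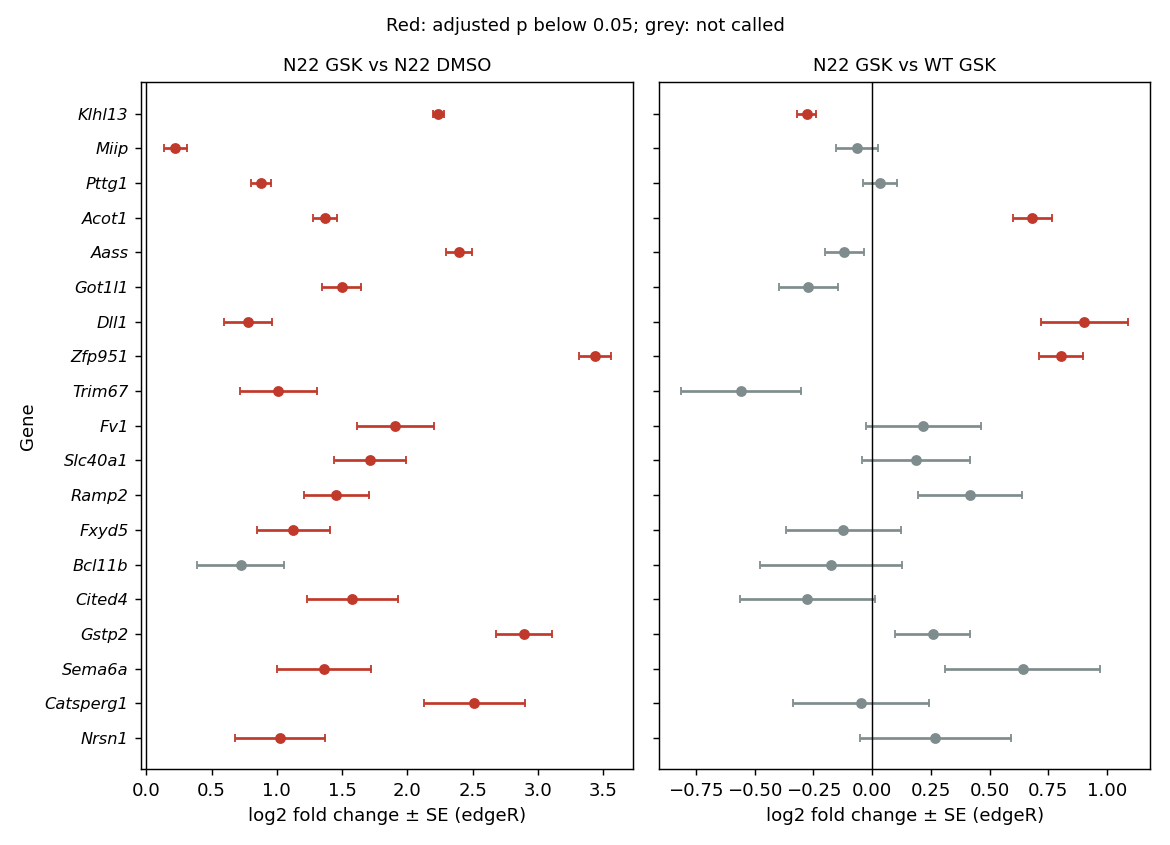
edgeR log2 fold changes (points) with their SE (bars) of 19 of the 20 genes in N22 GSK over N22 DMSO (left) and N22 GSK over WT GSK (right), red where the adjusted p was below 0.05. On the left the genes lie above 0, with Zfp951 at 3.43, and on the right most bars lie near 0, with Dll1 at 0.90 and Klhl13 at -0.28.

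KO22 GSK and WT are compared as values only, since KO22 GSK and WT DMSO entered the rule. KO22 GSK was lower than WT GSK without overlap for 15 of the 20 genes and higher for 1 (Ramp2), where 35.2% of the 13499 genes were lower and 25.9% higher, with a median log2 ratio of -0.37. Trim67, Nrsn1 and Klhl13 reached 0.409, 0.456 and 0.480 of WT GSK, while Bcl11b, Fv1 and Miip reached 0.956, 0.935 and 0.913. WT itself was higher with GSK than with DMSO for 17 genes and lower for 3, among them Dll1 and Miip, where 40.1% of the genes were higher and 38.6% lower without overlap. The median log2 ratio of WT GSK to WT DMSO was 0.73, and that of N22 GSK to N22 DMSO was 1.44 on the same scale. Both use DMSO libraries of their own, and the difference between them was not tested.

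The 20 genes were looked up in gene lists drawn up around DNA methylation. None was among 59 imprinted genes, 50 germline genes, 34 X-linked genes of testis and placenta, or 21 genes of the DNA methylation machinery found in the files. The 4 imprinted genes with values within the rule were the 4 left out by name, so the imprinted list held none because of that exclusion. The other lists are small beside 47729 genes, so finding none of the 20 there says little. In N22 GSK against N22 DMSO, 34 imprinted genes were called higher and 7 lower of 52 tested, 28 germline genes higher and 9 lower of 47, and 22 X-linked genes higher and 1 lower of 23. Among the machinery genes 4 were higher and 10 lower of 20. Of all 16641 genes tested in this comparison, 26.9% were called higher and 26% lower.

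Most neighbouring genes were not low in KO22 DMSO, but a larger share of them than of all genes was at most 1/2 of WT DMSO. The 20 genes lie on 14 chromosomes, and 7 of them have no other gene at the WT minimum within 100000 bases. Among 69 neighbours of the others that are no members, 2 were at most 1/4 of WT DMSO in KO22 DMSO, against 1.05% of the 13499 genes. At most 1/2 were 13 (18.8%), against 7.23% of the 13499 genes. Plekhh3, Ezh1, Wnk4, Cntd1 and Aoc3, which are among the 13, all lie near Ramp2. The median log2 ratio of the neighbours was -0.11, against -0.04 over all 13499 genes. Gstp1, 2364 bases from Gstp2 and similar to it in sequence, averaged 97.5 CPM in KO22 GSK, 11.4 CPM in KO22 DMSO and 31.6 CPM in WT DMSO. Acot2, a relative of Acot1, averaged 4.61 CPM in KO22 GSK, 2.48 CPM in KO22 DMSO and 4.05 CPM in WT DMSO. Reads of Acot1, Gstp2, Fv1, Zfp951 and Pttg1 can match related copies, and the counting left out multi-mapping reads, so the levels of these 5 genes are uncertain.

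The low members differed between the untreated clones, though some recurred, and 2 of the 7 clones had none. In the library labelled Dux-KO clone 22, none of the 14 members with an E14 mean of at least 1 CPM was at most 1/4 of the E14 mean (0.434% of 12902 genes were). KO22 DMSO also carries the number 22, but it was low by the rule, over 20 genes and against WT DMSO. The 2 results are therefore not directly comparable. In Dux-KO clone 15 the count was 4 of 14, where 2.82% of all genes were as low, and the 4 were Aass, Zfp951, Fv1 and Sema6a. In Dux-KO clone 52 it was 6 of 14 (0.527% of all genes), with Klhl13, Zfp951, Trim67, Gstp2, Sema6a and Nrsn1. Among the Dux n=1 clones none was low in clone 17 (0.574%), Sema6a was low in clone 22 (0.837%), Klhl13 in clone 31 (0.434%), and Klhl13, Zfp951 and Fv1 in clone 40 (0.597%). These are single libraries, so the counts have no replicate check. The median ratio to E14 over the 14 genes was 0.493, 1.12 and 0.287 in Dux-KO clones 15, 22 and 52, and 1.34, 1.08, 0.578 and 0.410 in Dux n=1 clones 17, 22, 31 and 40. The E14 minimum by which these 14 were kept favours low ratios. Over all 20 genes the median ratio was 0.873, 1.38 and 0.639 in the Dux-KO clones and 1.62, 1.78, 0.882 and 0.510 in the Dux n=1 clones, in the same order.

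**Figure D5:**
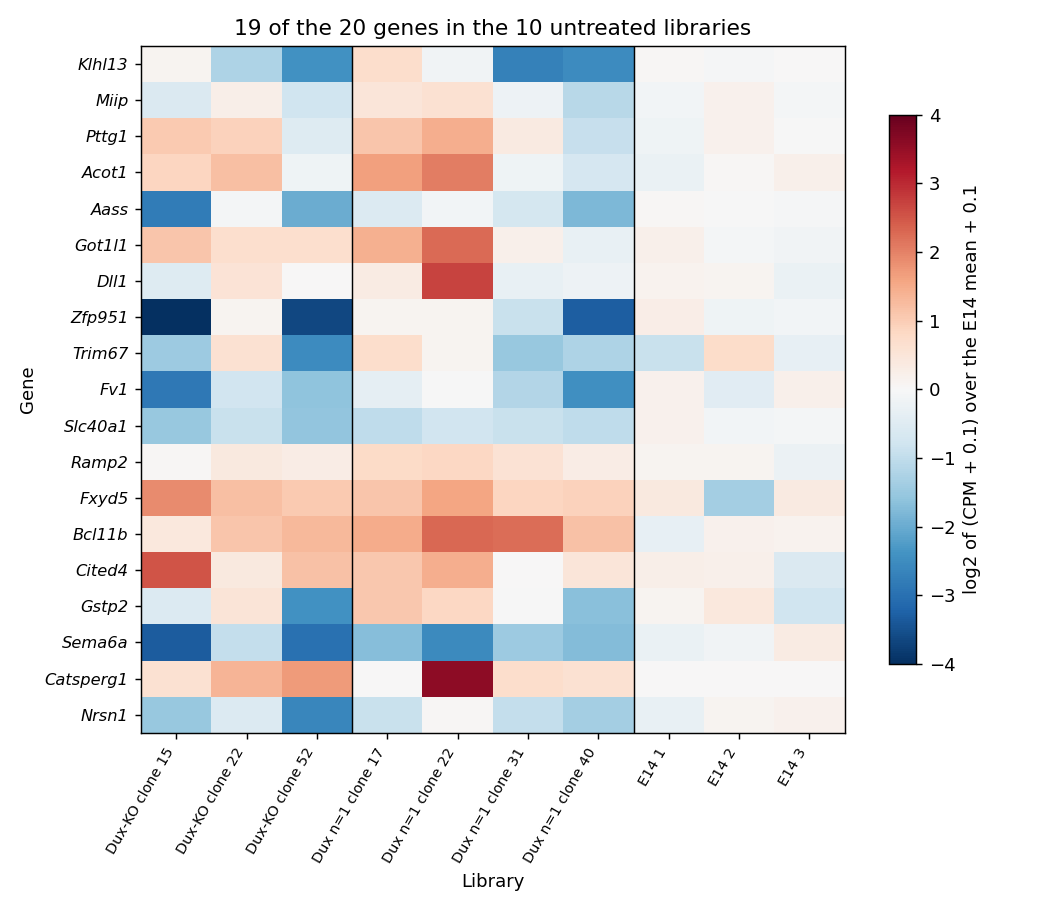
Level of 19 of the 20 genes (rows) in the 10 libraries of the untreated set (columns), as log2 of CPM plus 0.1 over the E14 mean plus 0.1. Low genes differ between clones, with Zfp951 low in Dux-KO clones 15 and 52 and Dux n=1 clone 40 but not in the library labelled Dux-KO clone 22, and colours end at 4 in either direction.

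Klhl13 differed widely between clones. Dux-KO clones 15, 22 and 52 had 108, 42.1 and 18.5 CPM and Dux n=1 clones 17, 22, 31 and 40 had 161, 90.5, 15.1 and 17.3 CPM, against 102, 95.2 and 101 CPM in E14. Low levels thus occurred in clones of both genotypes, and Dux n=1 clone 17 stood above E14. Zfp951 was low in Dux-KO clone 52 and Dux n=1 clone 40, where Klhl13 was low too, and also in Dux-KO clone 15, where Klhl13 was not. It had 0.155, 4.21 and 0.226 CPM in Dux-KO clones 15, 22 and 52 and 4.30, 4.27, 2.09 and 0.310 CPM in the Dux n=1 clones in number order, against 4.70, 3.45 and 3.66 CPM in E14. Aass had 1.29, 9.21 and 2.38 CPM in the Dux-KO clones and 6.60, 9.02, 5.88 and 2.68 CPM in the Dux n=1 clones, against 10.0, 9.61 and 9.35 CPM in E14. For Klhl13 and Aass the 3 E14 libraries lay closer together than the clones did, and each clone is 1 library, so clone, culture and library cannot be told apart.

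Miip and Fv1 did not always move together in the untreated clones. Miip had 11.1, 19.6 and 9.51 CPM in the Dux-KO clones and 23.4, 25.6, 14.4 and 7.59 CPM in the Dux n=1 clones, against 15.5, 18.7 and 15.6 CPM in E14. Fv1 had 0.206, 1.21 and 0.623 CPM in the Dux-KO clones and 1.63, 2.11, 0.886 and 0.310 CPM in the Dux n=1 clones, against 2.38, 1.53 and 2.46 CPM in E14. In Dux-KO clone 15 Fv1 was therefore low while Miip stood at 0.671 of E14. Pttg1 had 24.8, 23.0 and 8.43 CPM in the Dux-KO clones and 26.3, 33.5, 15.4 and 6.30 CPM in the Dux n=1 clones, against 10.7, 13.6 and 11.9 CPM in E14. Acot1 had 9.29, 11.8 and 4.47 CPM in the Dux-KO clones and 16.04, 21.3, 4.49 and 3.15 CPM in the Dux n=1 clones, against 4.19, 5.14 and 5.74 CPM in E14. For Pttg1 and Acot1 most clones were therefore at or above E14.

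Tested over clones, few members were called. Dux-KO against E14 had 2 of 19 tested members lower and 0 higher in edgeR, where 11.1% of 14796 genes were called lower and 9.26% higher. At an unadjusted p below 0.05 the count was 8 of 19, where 34.7% of all genes passed, and DESeq2 called 4, where it called 26.1% of all genes. Slc40a1 fell by 1.41 ± 0.32 (log2, adjusted p 0.0124 in edgeR), with 0.774, 1.26 and 0.736 CPM in the Dux-KO clones, against 2.72, 2.2 and 2.30 CPM in E14. Sema6a fell by 2.18 ± 0.63 (adjusted p 0.0314), with 0.206, 1.47 and 0.283 CPM in the Dux-KO clones, against 2.44, 2.66 and 3.77 CPM in E14. Every Dux-KO clone was below every E14 library for both genes. A GC content offset ended both calls, and Slc40a1 was lost without E14 replicate 1 (adjusted p 0.0662, range over 11 alternatives 0.00158 to 0.0662). Sema6a was lost without any single library except Dux-KO clone 22 (range 0.00181 to 0.113).

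Leaving out the library labelled Dux-KO clone 22 gave 7 called members in place of 2, where 23.4% of 15238 genes were called. Without it Aass, Zfp951, Fv1, Nrsn1, Slc40a1 and Sema6a were lower and Cited4 was higher than in E14. With all 3 clones Aass stood at -1.18 ± 0.59, Zfp951 at -1.36 ± 1.00 and Fv1 at -1.66 ± 0.66, none of them called. Cited4 had 2.63, 0.526 and 0.962 CPM in the Dux-KO clones, against 0.453, 0.452 and 0.219 CPM in E14. Nrsn1 had 0.361, 0.789 and 0.113 CPM, against 0.963, 1.30 and 1.37 CPM in E14.

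Dux n=1 against E14 had 1 of 19 tested members higher and 0 lower in edgeR, where 4.88% of 14796 genes were called higher and 4.28% lower. At an unadjusted p below 0.05 the count was 6 of 19, where 28.5% of all genes passed, and DESeq2 called 4, where it called 17% of all genes. Bcl11b rose by 2.17 ± 0.48 (log2, adjusted p 0.0234 in edgeR), with 0.847, 1.58, 1.52 and 0.671 CPM in the Dux n=1 clones, against 0.170, 0.283 and 0.273 CPM in E14. Its call was lost without any single E14 library and with the GC content offset (range over 12 alternatives 0.00551 to 0.135). Slc40a1 and Sema6a were lower by point estimate, at -1.0 ± 0.29 and -1.96 ± 0.57, with adjusted p 0.0529 and 0.0522. Slc40a1 had 1.15, 1.37, 1.27 and 1.14 CPM and Sema6a 0.847, 0.422, 1.01 and 0.826 CPM in these clones, all below E14.

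Dll1 and Catsperg1 were higher in some clones than in E14, and Fxyd5 was higher in every clone. Dll1 had 1.24, 2.68 and 1.81 CPM in the Dux-KO clones and 2.30, 12.3, 1.46 and 1.55 CPM in the Dux n=1 clones, against 1.98, 1.92 and 1.48 CPM in E14. Clone 22 of Dux n=1 stood out for Dll1. Catsperg1 had 0 counts in all 3 E14 libraries, which allows up to 0.0559 CPM over the group, and it failed the count filter of the untreated fit. It had 1, 3 and 4 counts in the Dux-KO clones and 0, 21, 1 and 1 counts in the Dux n=1 clones. Fxyd5 had 1.91, 1.16 and 1.02 CPM in the Dux-KO clones and 1.09, 1.53, 0.886 and 0.929 CPM in the Dux n=1 clones, against 0.623, 0.113 and 0.601 CPM in E14. Every clone was thus above every E14 library for Fxyd5. edgeR called Fxyd5 in neither comparison (adjusted p 0.0549 for Dux-KO and 0.126 for Dux n=1). DESeq2 called it higher in Dux-KO (log2 1.56, adjusted p 0.0264).

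Got1l1, Trim67, Gstp2 and Ramp2 were called in neither comparison. The level of Got1l1 was 3.87, 2.84 and 2.83 CPM in the Dux-KO clones and 4.84, 8.75, 2.02 and 1.39 CPM in the Dux n=1 clones, against 2.04, 1.64 and 1.58 CPM in E14. Trim67 had 0.464, 2.26 and 0.170 CPM in the Dux-KO clones and 2.42, 1.58, 0.443 and 0.568 CPM in the Dux n=1 clones, against 0.736, 2.49 and 1.15 CPM in E14. Gstp2 had 0.671, 1.53 and 0.113 CPM in the Dux-KO clones and 2.30, 1.90, 1.01 and 0.258 CPM in the Dux n=1 clones, against 1.13, 1.41 and 0.547 CPM in E14. Trim67 and Gstp2 were thus lowest in Dux-KO clone 52 among the 10 libraries. Ramp2 had 1.03 to 1.32 CPM in the Dux-KO clones and 1.24 to 1.85 CPM in the Dux n=1 clones, against 0.820 to 1.08 CPM in E14. In the Dux n=1 clones Cited4 had 0.380 to 1.21 CPM and Nrsn1 0.413 to 1.27 CPM, and Bcl11b had 0.361 to 0.736 CPM in the Dux-KO clones.

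WT of the treated set and E14 of the untreated set were not at the same level for these genes. E14 stood at a median of 0.460 of WT DMSO over the 20 genes, between 0.0756 for Catsperg1 and 2.11 for Sema6a. The rule chose genes by their WT DMSO level, which favours lower values in E14. The median log2 ratio was -1.12, against -0.13 over the 13499 genes at the WT minimum. E14 was lower without overlap for 14 of the 20 genes and higher for 1, where 48.0% of the 13499 genes were lower and 31.8% higher. Levels are therefore compared within each set only.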

How the data were processed

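RNA was sequenced from 22 samples of mouse ES cells, per the labels' protocols from 1 ug of total RNA each with the VAHTS Universal V6 kit. Reads were processed with fastp 0.23.2, HISAT2 2.1.0 and featureCounts 2.0.1 on GRCm38, with DESeq2 1.40.2 also listed, per the submitters' processing notes. Each deposited table holds raw fragment counts per Ensembl 84 gene without normalization, per the file headers. The counting commands there use paired reads, leave multi-mapping reads out and ignore strand, so reads of overlapping or antisense genes cannot be separated. Symbols came from GENCODE M21 for 47224 of 47729 genes. Members and gene lists were chosen with earlier results of these data known. Members are named with their CPM and ordered by role, except 1 that enters the counts and is not reported here by name.

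CPM is the count over the library total, and 0.1 CPM was added to group means before ratios. Each set was fitted in 1 model on counts with edgeR 4.0.16 in R 4.3.3 (TMM scaling, filterByExpr at 10 counts, quasi-likelihood test with robust fitting), over 16641 genes (treated) and 14796 genes (untreated), with Benjamini-Hochberg adjustment over all of them. All 20 members passed the filter in the treated fit and 19 in the untreated fit. The scripts were tested on simulated data. Only comparisons whose libraries the rule did not use were tested. Nothing in the labels says that replicates came from separate cultures, so the p-values reflect the spread of these libraries, part of which may be technical. Libraries of a group differed by more than sampling noise (chi-square per degree of freedom 2.72 to 58.5). Depth was 15803194 to 19427794 counts. A count of 0 was given a limit of 3 counts, which covers counting error only. Alternatives were DESeq2 1.42.0, RLE factors, no count filter, only the compared groups, a replicate block in the treated set, other thresholds of the rule, each library left out in turn, and, chosen after seeing the data, a GC content offset in the untreated set. A group reduced to 1 library took its spread from the remaining groups.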

Additional observations from a re-analysis of the deposited data

Results flagged for a closer look

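In Dux n=1 clone 22, Dll1 (12.3 CPM) and Catsperg1 (1.11 CPM) stood far above the other 3 Dux n=1 clones, whose levels were 1.46 to 2.30 and 0 to 0.0633 CPM. Each gap passed Dixon's limit for 4 samples, and chance passes it in about 1 of 20 groups, with 20 groups examined. Clone 22 is 1 library, so this has no replicate check.

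Within the treated set, Miip was higher in both N22 GSK libraries than in both N22 DMSO libraries (log2 ratio of means plus 0.1 CPM 0.27), and lower in both WT GSK libraries than in both WT DMSO libraries (-0.04). Dll1 was higher in N22 GSK than in N22 DMSO (0.81) and lower in WT GSK than in WT DMSO (-0.64). These opposite directions were not tested, and WT DMSO was used to choose the genes.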

How the results depend on the processing

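The number of genes found by the rule moved most. It was 20 as stated, 5 with a pseudocount of 1 CPM, 2 with 8-fold thresholds, 69 with 3-fold thresholds, 8 when every library had to meet the rule, and 21 to 40 with 1 library left out (40 without KO22 DMSO replicate 1). It was 14 with a WT minimum of 2 CPM and 23 with TMM-scaled library sizes.

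The members called in N22 GSK against N22 DMSO numbered 19 in the reported fit, 16 with DESeq2, 16 to 19 with 1 library left out, and 19 with the replicate block (18 higher, 1 lower). In N22 GSK against WT GSK they numbered 4 under all alternatives run, replicate block included. Same-numbered libraries of the treated set were not shown to be pairs, with correlations of their deviations between -0.02 and 0.13. Dux-KO against E14 gave 2 members as reported, 4 with DESeq2, 0 with the GC content offset (a choice made after seeing the data), and 0 to 7 with 1 library left out, 7 being without Dux-KO clone 22 and 0 without E14 replicate 1. Dux n=1 against E14 gave 1 as reported, 4 with DESeq2, 2 with no count filter, 3 with only the compared groups, 0 with the GC content offset and 0 to 2 with 1 library left out. No called gene changed direction in the comparison that called it. Of those not called, 6 of 16 changed sign under some alternative in N22 GSK against WT GSK, 4 of 17 in Dux-KO against E14 and 4 of 18 in Dux n=1 against E14. The causes were not tested. Depth limits the genes near 1 CPM, where a group mean rests on few counts.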
